A study of Mus musculus with 6 samples.

Results

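The apolipoproteins made by the liver were followed here as 10 genes, Apoa1, Apoa2, Apoa4, Apoa5, Apob, Apoc1, Apoc2, Apoc3, Apoe and Apom, chosen by symbol from the 55401 genes of the deposited table. All 10 had counts in every library and were among the 18931 genes tested. Apolipoproteins are the protein part of the particles that carry lipids in blood. Apolipoprotein B is the scaffold of very-low-density lipoprotein (VLDL), the A apolipoproteins and apolipoprotein M travel mainly on high-density lipoprotein (HDL), and the C and E apolipoproteins move between particles and set how lipases and receptors act on them. Hepatocytes make most of them, the intestine shares some, and macrophages also make apolipoprotein E.

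The tested livers came from 3 Alb-Cre Prdx1 fl/fl mice and were set against those of 3 Prdx1 fl/fl mice. Both genotypes carry loxP-flanked (floxed, lox/lox in the labels) Prdx1 alleles, and only the first also carries Alb-cre, a Cre recombinase driven by the albumin promoter, which is active in hepatocytes. Prdx1 encodes peroxiredoxin 1, an enzyme that reduces peroxides. All 6 mice were males aged 8 weeks when the diet began, and they received MCD for 5 weeks. MCD is not spelled out in the labels; it is a common short name of a diet lacking methionine and choline, which is known to hamper VLDL secretion. No group with Cre alone was analysed here, so effects of the transgene cannot be told apart from those of Prdx1 loss. Both genotypes received the same diet, and whether the differences depend on it was not tested. Below, the genotypes are called Alb-Cre and control, and libraries are numbered by their replicate.

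Deposited counts summed to 58790874 to 78291273 in the Alb-Cre libraries and 63189210 to 67319086 in the control libraries. Prdx1 stood at 75.4 to 111 CPM (counts scaled to a common library total with TMM factors) in Alb-Cre livers and at 570 to 663 CPM in control livers, with a log2 fold change of -2.82 ± 0.17 (SE, edgeR adjusted p = 4.4e-05). All fold changes are Alb-Cre over control, and all adjusted p-values are two-sided, by the quasi-likelihood test of edgeR and the Benjamini-Hochberg method over the tested genes, with a threshold of 0.05. They measure the spread among 3 mice a group, with the spread of each gene moderated by edgeR toward that of the other tested genes.

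With TMM scaling, 7 of the 10 apolipoproteins fell, 1 rose and 2 did not pass the test, while with libraries scaled to hepatocyte markers 2 fell and 3 rose. With TMM, Apoa1, Apoa2, Apoa4, Apoa5, Apob, Apoc3 and Apom fell, and Apoc1 and Apoe did not pass. Apoc2 rose, but not once its counts were summed with those of Gm44805, an overlapping gene model described below (-0.04, edgeR adjusted p = 0.733). Among all tested genes, 18.0% were lower and 19.9% higher with TMM by the same rule, 37.9% in all. With libraries scaled to hepatocyte markers, 417 of the 18931 were lower and 9896 higher. The median log2 fold change of the 10 was -0.75, against 0.05 for all tested genes. The CPM of the groups did not overlap for 6 lower and 1 higher apolipoprotein, against 24.2% of all tested genes lower and 28.8% higher without overlap. Of 28 tested hepatocyte markers 18 were lower and 0 higher (11 lower and 1 higher with library sizes alone), with a median of -0.62 and a summed level of 79674 to 97977 CPM in Alb-Cre livers against 130430 to 151785 CPM in control livers. In whole liver, fewer hepatocytes and less RNA per hepatocyte cannot be told apart.

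**Figure D1:**
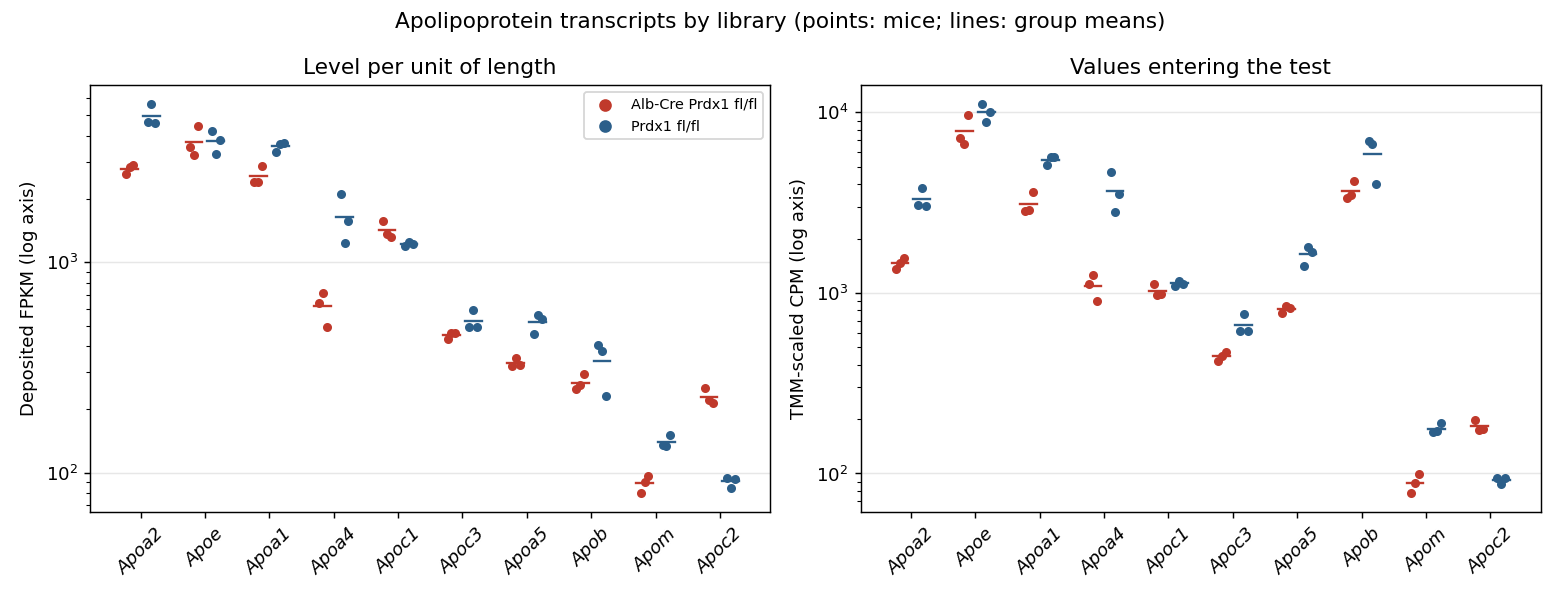
Level of the 10 apolipoproteins in each library on log axes, as deposited FPKM in the left panel and as the TMM-scaled CPM that entered the test in the right, Alb-Cre left of control, with 1 point per mouse and a line at the group mean. In CPM the groups are apart for 7 of the genes, while Apob, Apoc1 and Apoe overlap.

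Promoter sequence is shown for the pair with the largest falls (Apoa4 and Apoa2), for Apoa5, the other gene of the chromosome 9 cluster that came close to them, and for Apoc2, which was called in the other direction. Each window runs from 250 bases before to 50 bases after the RefSeq start and is read 5′ to 3′ on the gene's strand. For Apoa4 that start lies 148 bases inside the deposited gene, so much of its window is within the gene. The source is RefSeq on GRCm38.p6, which held windows for 8 of the 10 genes, all but Apoc1 and Apoc3. The windows are chr9:46240594-46240893 (plus strand) for Apoa4, chr1:171224804-171225103 (plus) for Apoa2, chr9:46268383-46268682 (plus) for Apoa5 and chr7:19677892-19678191 (minus) for Apoc2. Capitals mark matches to any of the 6 motifs searched.
Apoa4: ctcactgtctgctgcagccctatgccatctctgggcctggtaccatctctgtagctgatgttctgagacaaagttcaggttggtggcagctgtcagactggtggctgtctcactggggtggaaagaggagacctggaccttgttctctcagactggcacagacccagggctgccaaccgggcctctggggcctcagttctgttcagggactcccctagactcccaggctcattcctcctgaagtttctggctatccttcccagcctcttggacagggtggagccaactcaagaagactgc
Apoa2: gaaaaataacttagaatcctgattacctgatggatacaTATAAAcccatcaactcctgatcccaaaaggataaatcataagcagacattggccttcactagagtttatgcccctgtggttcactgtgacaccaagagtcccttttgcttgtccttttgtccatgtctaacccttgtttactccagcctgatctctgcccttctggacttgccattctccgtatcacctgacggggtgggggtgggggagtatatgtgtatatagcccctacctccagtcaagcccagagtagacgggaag
Apoa5: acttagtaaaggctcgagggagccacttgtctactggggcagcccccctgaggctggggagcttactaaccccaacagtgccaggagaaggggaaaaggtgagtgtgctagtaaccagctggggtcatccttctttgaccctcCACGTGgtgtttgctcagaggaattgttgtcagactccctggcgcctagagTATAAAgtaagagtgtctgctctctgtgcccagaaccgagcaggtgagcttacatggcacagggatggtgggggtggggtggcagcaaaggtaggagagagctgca
Apoc2: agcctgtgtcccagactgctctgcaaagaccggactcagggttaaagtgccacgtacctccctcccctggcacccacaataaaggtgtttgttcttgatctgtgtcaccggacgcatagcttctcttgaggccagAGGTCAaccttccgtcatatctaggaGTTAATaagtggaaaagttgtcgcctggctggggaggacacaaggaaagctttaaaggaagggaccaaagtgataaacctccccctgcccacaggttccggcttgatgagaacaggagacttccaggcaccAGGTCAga

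The motifs were searched on both strands, and no matches overlapped in these genes. The TATA box, TATAAA, was found in Apoa2 at -212, in Apoa5 at -56 and in Apob at -60, and in 13.6% of 32851 promoters. The nuclear receptor half-site AGGTCA was found in Apoc2 at -115 and 43 and in 16.3% of promoters. The HNF1 half-site GTTAAT was found in Apoc2 at -89 and in 7.1% of promoters, and the E-box CACGTG in Apoa5 at -107 and in 7.15%. Positions count the first base of the match from the start. None of the 8 windows held the HNF4 motif CAAAGTCCA, found in 0.475% of promoters, or the antioxidant response element core TGACNNNGC, found in 12.4%. Only exact matches to the letters given were counted, so variant sites for these factors would be missed. Apoa4, Apoa1, Apoe and Apom held none of the 6 motifs. The RefSeq start minus the deposited gene start was 148 bases for Apoa4 and -249 for Apom, a minus-strand gene. Much of the Apoa4 window and nearly all of the Apom window thus lay within the deposited gene. Little sequence upstream of either deposited gene was searched.

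Levels between genes were compared in FPKM, which is per length. In Alb-Cre livers the order was Apoe (3740 ± 629 FPKM), Apoa2 (2783 ± 138), Apoa1 (2567 ± 272), Apoc1 (1417 ± 142), Apoa4 (617 ± 115), Apoc3 (451 ± 17.7), Apoa5 (332 ± 16.8), Apob (268 ± 23.5), Apoc2 (230 ± 20.3) and Apom (89.3 ± 8.40). In control livers it was Apoa2 (4944 ± 592 FPKM), Apoe (3761 ± 475), Apoa1 (3561 ± 184), Apoa4 (1638 ± 438), Apoc1 (1220 ± 25.0), Apoc3 (527 ± 58.1), Apoa5 (520 ± 56.7), Apob (338 ± 93.5), Apom (141 ± 9.80) and Apoc2 (91.0 ± 5.16; SD, n = 3 throughout). Neighbours in this order overlapped between libraries for Apoa2 and Apoa1 and for Apob and Apoc2 in Alb-Cre livers, and for Apoe and Apoa1, Apoa4 and Apoc1, and Apoc3 and Apoa5 in control livers. Apoe ranked 6 to 15 among all genes of the Alb-Cre libraries and 13 to 22 in the control libraries, and Apoa2 ranked 17 to 19 in the Alb-Cre libraries and 5 to 11 in the control libraries. Together the 10 genes took 3.32%, 3.31% and 3.72% of all FPKM in Alb-Cre libraries 1 to 3, against 4.33%, 4.25% and 4.17% in control libraries 1 to 3.

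Apoa1 and Apoa2 encode the main proteins of HDL. Apoa1 (ENSMUSG00000032083, chromosome 9, 46228580 to 46230466, plus strand; this and the positions that follow are GRCm38 coordinates, as the table gives them) had 2856, 2861 and 3598 CPM in Alb-Cre livers, against 5092, 5688 and 5638 CPM in control livers. The groups were apart, and Alb-Cre library 3 was the highest of its group. The log2 fold change was -0.82 ± 0.12 (edgeR adjusted p = 0.00138). Apoa2 (ENSMUSG00000005681, chromosome 1, 171225054 to 171226379, plus strand) had 1355, 1456 and 1570 CPM in Alb-Cre livers, against 3060, 3807 and 3043 CPM in control livers. Every Alb-Cre value lay below every control value, with a log2 fold change of -1.18 ± 0.12 (edgeR adjusted p = 0.000292). In FPKM the ratio of Apoa2 to Apoa1 was 1.09 ± 0.0836 in Alb-Cre livers and 1.39 ± 0.149 in control livers, without overlap. The ratio of Apoa1 to Alb, the albumin gene of hepatocytes, was 0.136 ± 0.000886 in Alb-Cre livers and 0.138 ± 0.0111 in control livers, and these overlapped.

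Apom encodes the HDL protein that carries sphingosine-1-phosphate. The gene (ENSMUSG00000024391, chromosome 17, 35128997 to 35132050, minus strand) had 78.1, 88.3 and 99.2 CPM in Alb-Cre livers, against 169, 172 and 191 CPM in control livers. No Alb-Cre library reached the lowest control library. Its log2 fold change was -1.0 ± 0.11 (edgeR adjusted p = 0.000472), and its mean in Alb-Cre livers was 0.50 times that in control livers.

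Apoa4 encodes a lipid-binding apolipoprotein that the mouse makes in intestine and liver, and with TMM scaling it moved most of the 10. The gene (ENSMUSG00000032080, chromosome 9, 46240696 to 46243459, plus strand) had 1117, 1251 and 903 CPM in Alb-Cre livers, against 4696, 2823 and 3546 CPM in control livers. The control libraries spread widely, with library 1 the highest, yet the lowest of them stood above all Alb-Cre libraries. The log2 fold change was -1.76 ± 0.20 (edgeR adjusted p = 0.000579), and the Alb-Cre mean was 0.296 times the control mean. Of 7 listed gut markers, Alpi, Sis, Cdx2 and Cdx1 were at 0 in all libraries, and the list summed to 38.7 to 43.1 CPM in Alb-Cre livers and 90.5 to 104 CPM in control livers. Most of that sum was Fabp2, a fatty acid-binding protein gene, which was lower (33.5 ± 2.82 CPM in Alb-Cre livers and 95.0 ± 6.44 CPM in control livers, log2 fold change -1.50 ± 0.10, edgeR adjusted p = 6.53e-05). Vil1, the gene of villin, was higher (6.95 ± 0.707 CPM in Alb-Cre livers and 1.03 ± 0.801 CPM in control livers, log2 fold change 2.76 ± 0.54, edgeR adjusted p = 0.00587). Their part in the Apoa4 level was not tested. Gm47528, an unverified gene model on the opposite strand of Apoa4, held 149, 219 and 505 counts in Alb-Cre libraries and 554, 526 and 1473 in control libraries, against at least 75812 in Alb-Cre and 165146 in control libraries for Apoa4 itself. Whether counting used strand is not given in the sources used here, so reads of the pair cannot be told apart.

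Apoa5 encodes an activator of triglyceride clearance by lipoprotein lipase. The gene (ENSMUSG00000032079, chromosome 9, 46268633 to 46271919, plus strand) had 776, 851 and 827 CPM in Alb-Cre livers, against 1415, 1792 and 1688 CPM in control livers. The Alb-Cre libraries were close together and all lay below the control libraries. The log2 fold change was -1.0 ± 0.11 (edgeR adjusted p = 0.000417).

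Apob encodes the scaffold of VLDL, of which each particle carries a single copy. The gene (ENSMUSG00000020609, chromosome 12, 7977648 to 8016835, plus strand) had 3337, 3476 and 4144 CPM in Alb-Cre livers, against 6914, 6671 and 3988 CPM in control livers. Control library 3 stood far below the other control libraries and below Alb-Cre library 3, so the groups overlapped. The log2 fold change was -0.68 ± 0.21 (edgeR adjusted p = 0.0344), and it was 0.02 when libraries were scaled to hepatocyte markers. This call ended when any of 4 libraries was left out: the edgeR adjusted p was 0.113 without Alb-Cre library 1, 0.107 without Alb-Cre library 2, 0.115 without control library 1 and 0.102 without control library 2. Without control library 3 the log2 fold change was -0.90 (edgeR adjusted p = 0.00297).

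Apoc3 encodes an inhibitor of lipoprotein lipase and of remnant uptake. The gene (ENSMUSG00000032081, chromosome 9, 46232933 to 46235636, minus strand) had 419, 449 and 472 CPM in Alb-Cre livers, against 618, 759 and 618 CPM in control livers. All Alb-Cre libraries lay below all control libraries. The log2 fold change was -0.58 ± 0.11 (edgeR adjusted p = 0.00447), and 0.13 with libraries scaled to hepatocyte markers, where it did not pass (edgeR adjusted p = 0.38).

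Apoc1 encodes a small exchangeable apolipoprotein that hampers lipase action and receptor binding. The gene (ENSMUSG00000040564, chromosome 7, 19689481 to 19692660, minus strand) had 1127, 971 and 986 CPM in Alb-Cre livers, against 1093, 1166 and 1126 CPM in control livers. The groups overlapped, with a log2 fold change of -0.13 ± 0.09 that did not pass (edgeR adjusted p = 0.278). In FPKM the direction was the other one and the groups were apart, with 1579, 1360 and 1312 FPKM in Alb-Cre livers against 1194, 1243 and 1222 FPKM in control livers. That difference did not pass in limma on log2(FPKM + 0.5) (0.21, limma adjusted p = 0.101). In CPM, 28.8% of all tested genes were higher without overlap.

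Apoe encodes the ligand by which the liver takes up remnant particles. The gene (ENSMUSG00000002985, chromosome 7, 19696109 to 19699188, minus strand) had 7231, 6662 and 9610 CPM in Alb-Cre livers, against 11067, 8790 and 10099 CPM in control livers. Alb-Cre library 3 lay within the control range. The log2 fold change of -0.35 ± 0.16 did not pass (edgeR adjusted p = 0.12), and without Alb-Cre library 3 it was -0.52 (edgeR adjusted p = 0.0184). Macrophages also make Apoe, and of 18 macrophage markers 17 were higher and 0 lower, with a median of 1.29 and a summed level of 3854 to 4009 CPM in Alb-Cre livers against 1636 to 1823 CPM in control livers. Of all tested genes, 19.9% were higher with TMM. The part of macrophages in the Apoe level was not tested.

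Apoc2 encodes the cofactor that lipoprotein lipase needs, and with TMM scaling it was the only one of the 10 called higher. The gene (ENSMUSG00000002992, chromosome 7, 19671579 to 19677941, minus strand) had 198, 173 and 177 CPM in Alb-Cre livers, against 94.4, 87.1 and 94.3 CPM in control livers. The groups were well apart, with a log2 fold change of 0.99 ± 0.09 (edgeR adjusted p = 0.000195). This rise is uncertain, because a second gene model shares the exons of Apoc2. Gm44805 (ENSMUSG00000109350, chromosome 7, 19671584 to 19681423, minus strand) is annotated as protein-coding and spans Apoc2 and its neighbour Apoc4. Of its 765 exon bases, 646 (84.4%) lie in exons of Apoc2, 119 in exons of Apoc4 and 0 outside both. Apoc2 has 813 exon bases, of which 167 lie outside Gm44805.

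Counts of Gm44805 moved against those of Apoc2. It held 179, 349 and 224 counts in Alb-Cre libraries, against 5622, 5968 and 5526 counts in control libraries, with a log2 fold change of -5.02 ± 0.18 (edgeR adjusted p = 1.11e-05). Gm44805 was given 1.32%, 2.17% and 1.48% of the joint counts of Apoc2 and Gm44805 in Alb-Cre libraries, against 51.5%, 53.9% and 50.1% in control libraries. Summed into 1 gene, a step chosen after seeing the data, the pair had 200, 177 and 179 CPM in Alb-Cre livers, against 195, 189 and 189 CPM in control livers. The groups then overlapped, and the log2 fold change of -0.04 ± 0.08 did not pass (edgeR adjusted p = 0.733), while it was 0.33 with library sizes alone (edgeR adjusted p = 0.0211) and 0.67 with libraries scaled to hepatocyte markers (edgeR adjusted p = 0.00319). In the deposited counts, a change of the Apoc2 transcript cannot be told apart from a change in how reads were divided between Apoc2 and Gm44805.

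Apoc4, a minor C apolipoprotein and no member of the 10, had 326, 324 and 339 CPM in Alb-Cre livers, against 499.5, 466 and 497 CPM in control livers, a log2 fold change of -0.56 ± 0.07 (edgeR adjusted p = 0.00103) that turned to 0.14 with libraries scaled to hepatocyte markers. The Apoc4 call was also lost with library sizes alone (-0.20, edgeR adjusted p = 0.0776) and in limma on log2(FPKM + 0.5) without a filter (-0.21, limma adjusted p = 0.055). With Gm44805 added to Apoc4 it was -0.82 ± 0.07 (edgeR adjusted p = 0.000201). With Apoc2, Gm44805 and Apoc4 summed it was -0.40 ± 0.07 (edgeR adjusted p = 0.00441), with -0.03 for library sizes alone and 0.31 for libraries scaled to hepatocyte markers.

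**Figure D2:**
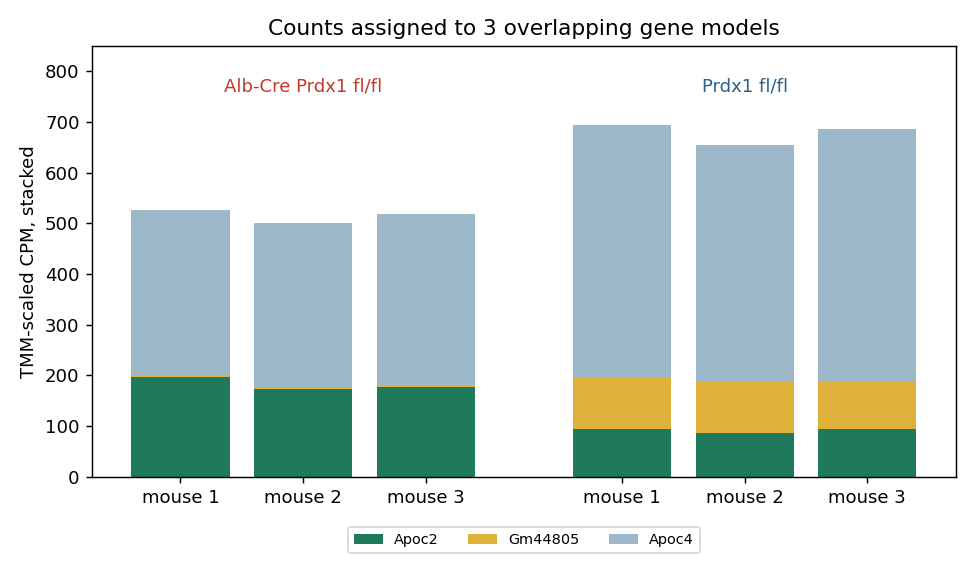
TMM-scaled CPM of Apoc2, Gm44805 and Apoc4 as stacked bars from 0, with 1 bar per mouse and Alb-Cre left of control. Gm44805 is a thin band in Alb-Cre livers and about as thick as Apoc2 in control livers, and Apoc2 with Gm44805 reaches 177 to 200 CPM in Alb-Cre livers and 189 to 195 CPM in control livers.

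How the libraries were scaled decided part of the picture. TMM factors ran from 1.10 to 1.16 in Alb-Cre libraries and from 0.869 to 0.888 in control libraries. The median log2 fold change of all tested genes was 0.05 with TMM, 0.41 with library sizes alone, 0.26 in FPKM and 0.76 with libraries scaled to hepatocyte markers, and the median of the 10 apolipoproteins was -0.75, -0.39, -0.39 and -0.05 in the same order. The FPKM median of all genes is over 14604 genes, the others over 18931. With library sizes alone, 5 of the 10 were lower, Apoa1, Apoa2, Apoa4, Apoa5 and Apom, and Apob (-0.32) and Apoc3 (-0.21) did not pass. In limma on log2(FPKM + 0.5) these 2 did not pass either (-0.30 and -0.22), and Apoa1 did not pass there when no filter on low values was used (-0.48, limma adjusted p = 0.147). The hepatocyte scale is the geometric mean of 28 markers, whose log2 fold changes with TMM ran from -2.97 (Glul) to -0.0004 (Ass1). It therefore depends on which markers were listed. Relative to hepatocyte markers, Apoa2 (-0.47, edgeR adjusted p = 0.00592) and Apoa4 (-1.04, edgeR adjusted p = 0.00364) were lower. On that scale Apoc1 (0.58, edgeR adjusted p = 0.0054) and Apoe (0.34, edgeR adjusted p = 0.041) were higher, as was Apoc2 (1.70) with the limit given above. Apoa1 (-0.12), Apoa5 (-0.29), Apob (0.02), Apoc3 (0.13) and Apom (-0.30) did not pass there.

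**Figure D3:**
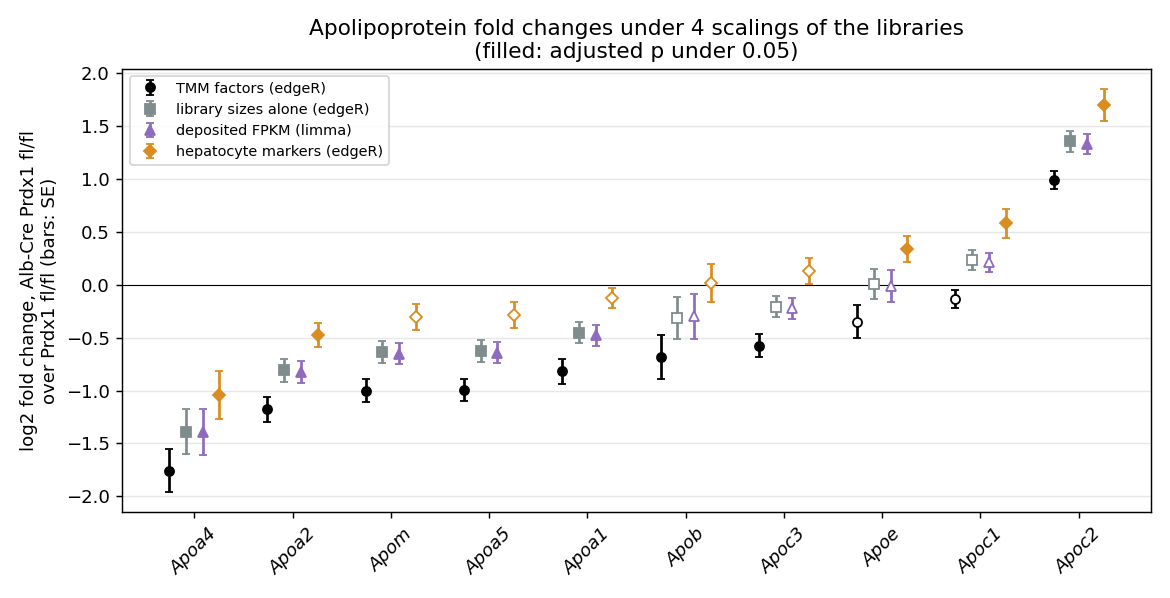
Log2 fold change (Alb-Cre over control, bars for SE, filled where the adjusted p was under 0.05) of each apolipoprotein under 4 scalings, with a line at 0 for no difference. Apoa1, Apoa2, Apoa4, Apoa5 and Apom are below 0 under each scaling shown, while Apob, Apoc1, Apoc3 and Apoe cross it.

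The makeup of the apolipoprotein messages was described by each gene's share of the summed FPKM of the 10, which does not depend on how the libraries are scaled. The shares of 6 genes did not overlap between the groups. Apoe, Apoc1 and Apoc2 were higher in Alb-Cre livers, and Apoa2, Apoa4 and Apom were lower. However, 3 against 3 mice cannot pass an exact test. In CPM, 24.2% of all tested genes were lower and 28.8% higher without overlap. Shares are parts of a fixed whole, so a fall of some raises others. The FPKM of Apoe itself was 3740 ± 629 in Alb-Cre livers and 3761 ± 475 in control livers. Apoe took 29.8 ± 3.05% in Alb-Cre livers and 22.5 ± 2.70% in control livers. Apoa2 took 22.3 ± 1.17% in Alb-Cre livers and 29.5 ± 3.49% in control livers. Apoc1 took 11.4 ± 1.63% in Alb-Cre livers and 7.29 ± 0.257% in control livers. Apoa4 took 4.99 ± 1.20% in Alb-Cre livers and 9.77 ± 2.49% in control livers. Apoc2, with the doubt given above, took 1.85 ± 0.244% in Alb-Cre livers and 0.544 ± 0.0332% in control livers, and Apom 0.715 ± 0.0490% in Alb-Cre livers and 0.841 ± 0.0753% in control livers. Apoa1 overlapped at 20.5 ± 0.845% in Alb-Cre livers and 21.3 ± 1.49% in control livers (SD, n = 3 each). Per length, Apoe stood at 1.45 ± 0.0998 times Apoa1 in Alb-Cre livers and 1.06 ± 0.183 times in control livers. The ratio of Apoc1 to Apoc3 was 3.16 ± 0.448 in Alb-Cre livers and 2.33 ± 0.208 in control livers. The ratio of Apoa5 to Apoc3, 2 genes that act in opposite directions on triglyceride clearance, was 0.738 ± 0.030 in Alb-Cre livers and 0.989 ± 0.0955 in control livers. For each of these 3 ratios the groups did not overlap, and an exact permutation test (two-sided) stood at p = 0.1, below which 3 against 3 mice cannot go. They are among 22 ratios computed, so no adjusted value can pass the threshold.

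In the genome, 4 of the 10 genes lie together on chromosome 9 and 3 on chromosome 7. On chromosome 9, Apoa1, Apoc3, Apoa4 and Apoa5 start within 40.1 kb, and all 4 fell with TMM, with log2 fold changes of -0.82, -0.58, -1.76 and -1.0. Apoc3 did not pass with library sizes alone (-0.21, edgeR adjusted p = 0.133). With libraries scaled to hepatocyte markers the 4 genes stood at -0.12, 0.13, -1.04 and -0.29, and only Apoa4 passed. Of the 9 neighbouring genes listed around them, Tagln, a smooth muscle gene, was higher (1.11 ± 0.25), Sik3, which encodes a kinase, was lower (-0.39 ± 0.11, but not past the threshold with library sizes alone, -0.024, or in limma on log2(FPKM + 0.5), -0.042, and 0.31 with libraries scaled to hepatocyte markers), and Bace1, Pcsk7, Rnf214, Sidt2, Pafah1b2, Zpr1 and Bud13 did not pass. The call of Sik3 ended without Alb-Cre library 1 or 2 or control library 2 or 3, with an edgeR adjusted p of 0.0768, 0.0719, 0.0623 and 0.0609. On chromosome 7, Apoe, Apoc1 and Apoc2 start within 21.2 kb, with Apoc4 among them, and their calls differed as given above. Of the 6 genes listed around that cluster, Bcam, an adhesion molecule gene, was higher (1.98 ± 0.19), Clptm1 (-0.40 ± 0.09), Tomm40 (-0.53 ± 0.11) and Nectin2 (-0.38 ± 0.11) were lower, and Relb and Cblc did not pass. These 3 lower calls were lost with library sizes alone (-0.026, -0.16 and -0.0092) and in limma on log2(FPKM + 0.5) (-0.045, -0.18 and -0.023), and the values turned to 0.32, 0.17 and 0.33 with libraries scaled to hepatocyte markers. Nectin2 lost its call without any of 5 libraries, all but control library 2, with edgeR adjusted p-values of 0.0518 to 0.105, and with no count filter (edgeR adjusted p = 0.0523).

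**Figure D4:**
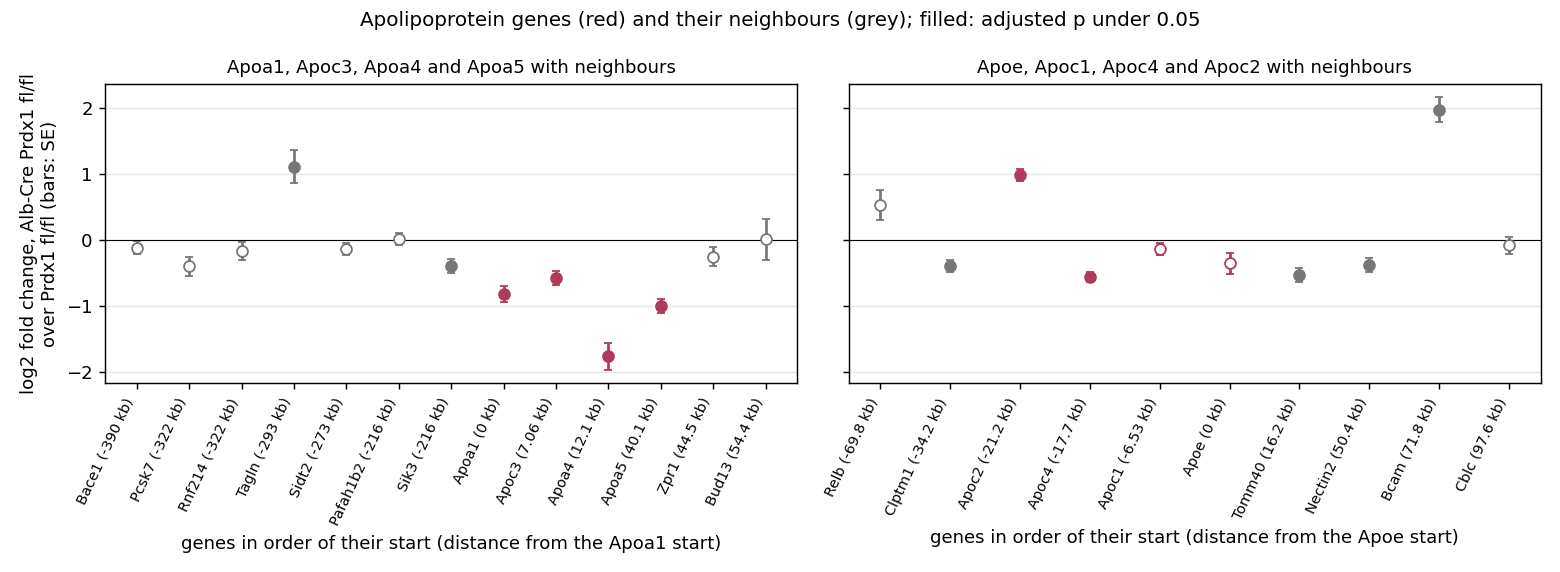
Log2 fold change (Alb-Cre over control, bars for SE) of the genes of the chromosome 9 cluster (left) and the chromosome 7 cluster (right) with their neighbours, in order of position and labelled with the distance in kb from the start of Apoa1 or Apoe. Filled points passed the test; the 4 apolipoproteins of chromosome 9 lie between -1.76 and -0.58.

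With TMM scaling, genes that assemble VLDL were mostly lower: of 21 tested, 15 were lower, 2 higher and 4 did not pass. Their median log2 fold change was -0.64. Apob was also lower with TMM, but its call depended on the scaling and on single libraries, as given above. Mttp, the protein that loads lipid onto apolipoprotein B, had 172, 163 and 173 CPM in Alb-Cre livers, against 305, 323 and 333 CPM in control livers (-0.92 ± 0.08, edgeR adjusted p = 0.000157). P4hb, its partner subunit, stood at -0.97 ± 0.08 (edgeR adjusted p = 0.000165). Sar1b, a GTPase of the vesicles that carry lipoproteins out of the endoplasmic reticulum, stood at -1.13 ± 0.08 (edgeR adjusted p = 8.02e-05), and Dgat2, which makes triglyceride, at -1.37 ± 0.11 (edgeR adjusted p = 0.000106). The 2 higher genes, named after their values were seen, were Apobec1 and Sort1. Apobec1, the enzyme that edits Apob messenger RNA to the short form, had 46.5, 62.1 and 55.3 CPM in Alb-Cre livers, against 25.1, 26.9 and 27.1 CPM in control livers (1.05 ± 0.12, edgeR adjusted p = 0.000585). A1cf, its cofactor, was lower at -0.64 ± 0.09 (edgeR adjusted p = 0.00114), but did not pass with library sizes alone (-0.27, edgeR adjusted p = 0.0628) or in limma without a filter (-0.29, limma adjusted p = 0.0579), and stood at 0.08 with libraries scaled to hepatocyte markers. Sort1, a sorting receptor that binds apolipoprotein B, had a log2 fold change of 0.92 ± 0.21 (edgeR adjusted p = 0.0101). Editing itself is not measured by gene counts. The count of lower genes in this group was 8 with library sizes alone and 2 with libraries scaled to hepatocyte markers, where Mttp (-0.21) and P4hb (-0.26) did not pass. Of all 18931 tested genes, 3415 were lower with TMM, 1249 with library sizes alone and 417 with hepatocyte scaling.

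Among receptors and lipases that act on the apolipoproteins, 4 of 19 were higher, 8 lower and 7 did not pass. Their median was -0.19. Of all tested genes, 19.9% were higher and 18.0% lower with TMM, so the higher count was near the share of all genes. Lpl, the lipase that Apoc2 activates and Apoc3 inhibits, had 479.8, 416 and 471 CPM in Alb-Cre livers, against 130.3, 137 and 120.0 CPM in control livers (1.82 ± 0.09, edgeR adjusted p = 3.35e-05). The groups were apart, with every Alb-Cre library above every control library. With library sizes alone 7 of the 19 were higher and 7 lower, and with libraries scaled to hepatocyte markers 11 were higher and 5 lower. Of all 18931 tested genes, 6459 were higher and 1249 lower with library sizes alone, and 9896 and 417 with hepatocyte scaling. Lipg, endothelial lipase, which acts on HDL, stood at -4.03 ± 0.44 (edgeR adjusted p = 0.000477). Lpl is made by macrophages and other non-hepatocyte cells too, and the macrophage markers given above were higher; their part was not tested.

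Of 10 genes of HDL formation and remodelling, 4 were higher, 4 lower and 2 did not pass. The median was -0.09. Of all tested genes, 19.9% were higher and 18.0% lower with TMM, which also stands beside the TMM counts that follow. Pltp, which transfers phospholipid between particles, stood at 1.74 ± 0.14 (edgeR adjusted p = 0.000145), and Abcg1, a cholesterol exporter, at 1.83 ± 0.22 (edgeR adjusted p = 0.000729). Pon1, an esterase carried on HDL, was lower at -0.81 ± 0.09 (edgeR adjusted p = 0.000552), but did not pass with libraries scaled to hepatocyte markers (-0.10). On that scale 7 of the 10 genes were higher and 1 was lower, beside 9896 higher and 417 lower of all 18931 tested genes. Of 13 other tested apolipoprotein and lipoprotein-protein genes out of 16 listed, 8 were lower, 1 higher and 4 did not pass. The median of the 13 was -0.81. Apof (-1.23 ± 0.09, edgeR adjusted p = 7.88e-05), Apon (-1.48 ± 0.17, edgeR adjusted p = 0.000519) and Saa4 (-1.19 ± 0.12, edgeR adjusted p = 0.00032) fell, beside Pon1. With libraries scaled to hepatocyte markers 5 were lower, Apof, Apon and Saa4 among them, and 2 higher. The higher gene, named after its values were seen, was Clu, clusterin or apolipoprotein J, with 1821, 1997 and 2141 CPM in Alb-Cre livers, against 1144, 986 and 1143 CPM in control livers (0.87 ± 0.10, edgeR adjusted p = 0.000604). Markers of other liver cells moved as well. All 12 bile duct markers were higher, with a summed level of 1200 to 1389 CPM in Alb-Cre livers against 89.5 to 101.6 CPM in control livers. Of 13 stellate cell and fibroblast markers 12 were higher, with a summed level of 2489 to 2884 CPM in Alb-Cre livers against 791.8 to 895.6 CPM in control livers. Their part in these values was not tested.

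Of 30 listed regulators of apolipoprotein genes, 14 were lower, 3 higher and 13 did not pass, with a median log2 fold change of -0.39. All tested genes had shares of 18.0% lower and 19.9% higher. Hnf4a, a nuclear receptor that drives many apolipoprotein genes in hepatocytes, had 451, 458 and 532 CPM in Alb-Cre livers, against 868, 778 and 862 CPM in control livers (-0.80 ± 0.10, edgeR adjusted p = 0.000703). Creb3l3, a liver factor that drives Apoa4 and Apoa5 in the mouse, had 204, 167 and 205 CPM in Alb-Cre livers, against 391, 316 and 413 CPM in control livers (-0.96 ± 0.13, edgeR adjusted p = 0.00114). For both genes the groups were apart, but with libraries scaled to hepatocyte markers neither passed (-0.10 and -0.26). Nr1h3, the oxysterol receptor LXR alpha, stood at -0.70 ± 0.09 (edgeR adjusted p = 0.000787) but 0.02 with libraries scaled to hepatocyte markers, and Nr2f2, an orphan nuclear receptor, at 1.28 ± 0.16 (edgeR adjusted p = 0.000829). With library sizes alone 6 of the 30 were lower and 7 higher, and with libraries scaled to hepatocyte markers 2 were lower and 11 higher. For all 18931 tested genes these counts were 1249 and 6459, and 417 and 9896.

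**Figure D5:**
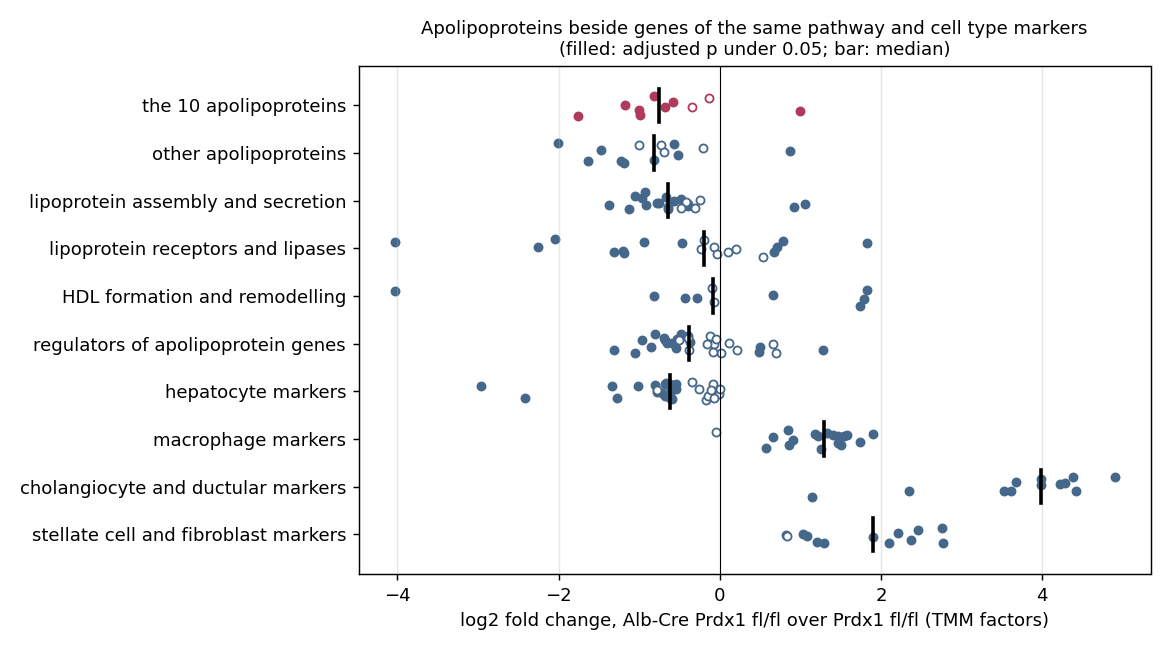
Log2 fold change (Alb-Cre over control) of each tested gene of the listed groups, with 1 point per gene and a line at the median of each group. Medians lie at -0.75 for the 10 apolipoproteins and -0.62 for hepatocyte markers, and at 1.29, 1.9 and 3.98 for macrophage, stellate and bile duct markers.

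The profiles of the apolipoproteins over the 6 libraries were compared by the root mean square difference of centred log2(CPM + 1) values, over 9564 genes with a mean of at least 10 CPM. Apoa1 and Apom were nearest to each other among the 10 (0.114), followed by Apoa5 to Apom (0.123) and Apoa2 to Apoa5 (0.132). Apoe and Apoc1 were nearest to each other (0.251), Apob was nearest to Apoc3 (0.239), and Apoa4 (0.456 from Apoa2) and Apoc2 (0.562 from Apoc1) stood farthest from the rest. The Apoc2 profile is that of its own counts without Gm44805. Its distances and its nearest gene carry the doubt given above. Outside the 10, the nearest genes were Faah for Apoa1 (0.0592), Adh7 for Apoa2 (0.0409), Serpina6 for Apoa4 (0.186), Ugp2 for Apoa5 (0.0271) and Hsd3b3 for Apob (0.0928). They were Lta4h for Apoc1 (0.0307), Cotl1 for Apoc2 (0.0416), Mpzl3 for Apoc3 (0.0492), Cisd1 for Apoe (0.0428) and Hnmt for Apom (0.025). With so many genes and 6 libraries that fall into 2 genotypes, a close match is a description.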

How the data were processed

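Polyadenylated liver RNA was sequenced as read pairs from libraries with molecular identifiers and a dUTP-marked second strand, per the labels' protocols. The authors deposited an estimated count and an FPKM value per gene and library. StringTie 1.3.4d, HISAT2 2.0.4, cutadapt 1.9, edgeR, DESeq2 and UMI-tools are named as tools, per the submitters' processing notes. Their roles, and whether counting used strand, are not given in the sources used here. The notes list mm9, but 51920 of 55141 gene identifiers (94.16%), including all 10 apolipoproteins, have the position of GENCODE M21 on GRCm38. Columns named wt were taken as Prdx1 fl/fl, the only genotype without Cre. The deposited counts were whole but not raw: in control library 1, 854 genes had a count of 4, against 280 with 3 and 167 with 5, so counts overstate independent molecules and no counting intervals are given. The design had named edgeR for counts, rounded if estimated, and it was kept.

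Counts were fitted for all genes in R 4.3.3 with edgeR 4.0.16 (filterByExpr at a count of 10 and a total of 15, TMM, glmQLFit and glmQLFTest, genotype as the only term). SEs came from the F statistic. The 10 genes and all lists were chosen with earlier results of these data known. In each other list except the cell type markers, which are given as counts, up to 4 genes with the smallest p are named, with all genes of the clusters, and for each of the 10 the nearest gene outside them and the nearest within. Some genes that this rule would name are not reported here. Alternatives were DESeq2 1.42.0, RLE factors, library sizes alone, libraries scaled to the 28 hepatocyte markers, no filter, limma 3.58.1 on log2(FPKM + 0.5, 1 or 0.1) with a mean FPKM of at least 0.5 or no filter, a replicate block, and leaving out each library. Counts divided by 4 and summed gene models were added after seeing the data. The procedure was tested on simulated data. Tables were made with Python 3.11.15, NumPy 2.4.6, pandas 2.3.3 and SciPy 1.17.1. The labels give no batch, litter or date.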

Additional observations from a re-analysis of the deposited data

How the results depend on the processing

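DESeq2, RLE factors, no count filter and counts divided by 4 (the last added after seeing the data) kept 7 apolipoproteins lower and 1 higher. With libraries scaled to hepatocyte markers, 2 were lower and 3 higher, and limma on log2(FPKM + 0.5) without a filter left 4 lower. Leaving out each library gave 6 to 8 lower and 1 higher. Among the 18931 tested genes, 3767 were higher and 3415 lower with TMM, 6459 and 1249 with library sizes alone, and 9896 and 417 with hepatocyte scaling. Limma on log2(FPKM + 0.5) without a filter tested 27476 genes and called 5980 higher and 1148 lower. With the filter and pseudocounts of 0.5, 1 and 0.1, limma tested 14604 genes and called 1306, 1308 and 1295 lower. Directions turned with library sizes alone for Apoc1 (0.24), Apoe (0.011) and Apoc2 summed with Gm44805 (0.33), and for Apoc1 in all 4 limma fits (0.21). With hepatocyte scaling they turned for Apob (0.015), Apoc1 (0.58), Apoc3 (0.13), Apoe (0.34), Apoc4 (0.14), A1cf (0.076), Nr1h3 (0.018), Sik3 (0.31), Clptm1 (0.32), Tomm40 (0.17), Nectin2 (0.33), Apoc2 with Gm44805 (0.67) and the sum of all 3 models (0.31). The cause was not tested. Replicate numbers were not taken to pair the mice in the main fit. Deviations of same-numbered libraries correlated at 0.013, 0.0746 and 0.0502, against -0.0671 to 0.013 for libraries of different numbers. Of 6 libraries 5 correlated best with their own number, a weak hint of pairing from the data alone. The 6 are not independent, since each same-numbered value counts for both of its libraries. Alb-Cre library 1 stood at 0.013 with control libraries 1 and 3 alike. With a replicate block 6 apolipoproteins were lower, since Apob (-0.65, edgeR adjusted p = 0.0787) did not pass, and 3269 and 3207 of all genes were higher and lower. Apoa2 and Apoa4 stayed lower in every alternative run. Counts of the 10 genes were 5098 or more in each library, so precision is set mainly by the number of mice, 3 a group.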
